A study of Citrus x limon with 9 samples.

Results

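Homeobox, TCP and organ boundary factors include transcription factors that keep the shoot apex dividing and set out where organs form. Others among them are known for other roles, such as responses to water and shade. Transcripts of the whole set were measured here in lemon buds around a flower-inducing water deficit. The genes were picked by the words of their best protein match, which named a homeobox, knotted, WUSCHEL, BEL1-like, TCP, YABBY, growth-regulating factor, LOB domain or SCARECROW protein, and the TCP14-like gene Cs5g03980 was added by its identifier. This gave 94 of the 22353 genes of the table. Of these, 79 had at least 1 FPKM (mapped fragments scaled to the length of the transcript and to the size of the library) in at least 3 of the 9 libraries and were tested among 17729 genes. The names are those of the closest protein and do not prove the same function in lemon.

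RNA was sequenced from the terminal bud and the buds just below it on spring flushes of Citrus x limon, cultivar Femminello, bud-grafted on trifoliate orange rootstock and grown in a greenhouse. Buds were taken 1 week before the deficit (stage 1), 1 week into it (stage 2) and 1 week after full watering was restored (stage 3), with 3 libraries per stage, 1 from each of 3 groups of 3 trees, and whether the same groups were sampled at each stage is not stated. At stage 3, flower buds could be seen by eye. No watered buds of the same dates are among these libraries, so water supply and date cannot be told apart, and in whole buds fewer cells of a type and less RNA per cell cannot be told apart either.

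Plant homeodomain proteins bind DNA through a helical domain, and most work as pairs. HD-ZIP proteins pair through a leucine zipper and fall into classes: class I and II factors are known in Arabidopsis for responses to water, abscisic acid and shade, class III factors for the upper side of organs and the vascular tissue, and class IV factors for the epidermis. KNOX proteins of their own class I hold cells of the meristem in an undetermined state, and KNOX proteins act in dimers with BELL proteins. TCP factors promote or restrain cell division in young organs and buds, while YABBY, GRF, LBD and SCARECROW-type proteins act in organ polarity, growth, boundaries and radial pattern.

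The TCP14-like gene Cs5g03980 on chromosome 5 was the only one of these genes with primers in the study's real-time PCR table, and its primers are shown because they say which transcript that assay reads. The sense primer had 22 bases with 50.0% G and C, and the antisense primer had 21 bases with 47.6%. Their position in the gene was not looked up here.
TCP14-like Cs5g03980 sense primer: caagtattagtgggagtagcgg
TCP14-like Cs5g03980 antisense primer: ggaaacctgcctgtatggatt

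The 79 tested genes were spread over 9 chromosomes, with 7 on scaffolds not placed on a chromosome. Their mean FPKM over the 9 libraries ran between 0.633 and 585, with a median of 14.0, against 13.6 over all genes tested. The 9 libraries resembled each other in total, with summed FPKM between 625348 and 636775, and the 94 genes together took 0.47% to 0.4825% of it at stage 1, 0.5082% to 0.5391% at stage 2 and 0.481% to 0.4994% at stage 3. Of the 15 genes that were not tested, none exceeded 2.66 FPKM in any library. They were 4 LBD, 4 SCARECROW-like, 2 ZF-HD, 2 WOX, 1 HD-ZIP I or II, 1 TCP and 1 YABBY gene. By the third highest value of each, the WUSCHEL-like Cs1g25270 (1.02 FPKM) and the ZF-HD gene Cs3g01640 (1.08 FPKM) lay just inside the limit, and the SCARECROW-like 28 gene Cs5g10360 (0.89 FPKM) and the ZF-HD gene Cs3g22190 (0.71 FPKM) just outside it. The set is not complete, because 54.5% of all genes matched a protein described as hypothetical or uncharacterized.

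A gene was counted as called where limma gave a Benjamini-Hochberg adjusted p under 0.05 over all 17729 genes and a change of at least 2-fold on the log2(FPKM + 1) scale, a scale that understates the change of genes with low FPKM. At stage 2 against stage 1, 6 of the 79 genes (7.59%) were called, 3 higher and 3 lower, while 7.85% of all genes tested were called, 3.18% higher and 4.66% lower. At stage 3 against stage 2, 3 were called (3.8%), 1 higher and 2 lower, beside 7.46% of all genes, 4.92% higher and 2.54% lower. At stage 3 against stage 1, 4 were called, all 4 lower, beside 4.93% of all genes, 2.69% higher and 2.24% lower. By limma 0 were called higher there, and 0 were at least 2-fold higher even at an unadjusted p under 0.05. The highest log2 fold change in that comparison was 0.90. In both directions together, the shares called were close to or below those of the whole table. The share called lower at stage 3 against stage 1 was 5.06%, beside 2.24%. In all, 9 genes were called at least once and 70 were not. The comparisons share libraries, so they are not independent of each other.

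Smaller changes were frequent. At an adjusted p under 0.05 with no limit on the fold, 35 of the 79 genes (44.3%) passed limma's test at stage 2 against stage 1, beside 38.4% of all genes, and 22 of them were lower and 13 higher, beside 17.1% lower and 21.2% higher over all genes. The split moved with the scaling of the libraries: it was 27 lower and 11 higher after median scaling and 24 lower and 11 higher after quantile normalization, while over all genes 16.8% were then higher and 21.2% lower with median scaling, and 18.7% higher and 18.9% lower with quantile normalization. At stage 3 against stage 2, 32 genes passed (40.5%, beside 36.0% of all genes), 18 higher and 14 lower, beside 16.2% higher and 19.8% lower over all genes. At stage 3 against stage 1, 25 passed (31.6%, beside 27.3%), 14 higher and 11 lower (14.4% and 12.9% of all genes), which became 11 higher and 13 lower after median scaling and 11 higher and 12 lower after quantile normalization. The median log2 fold change was −0.15 at stage 2 against stage 1, 0.09 at stage 3 against stage 2 and −0.02 at stage 3 against stage 1, beside 0.05, −0.06 and 0.01 over all genes tested. Stage 2 libraries lay wholly above those of stage 1 for 17 genes and wholly below for 30, where all genes gave 27.8% and 22.2%. Stage 3 libraries lay wholly above those of stage 2 for 24 genes and wholly below for 19 (19.9% and 26.5% of all genes), and above those of stage 1 for 18 and below for 22 (22.2% and 21.4% of all genes).

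**Figure D1:**
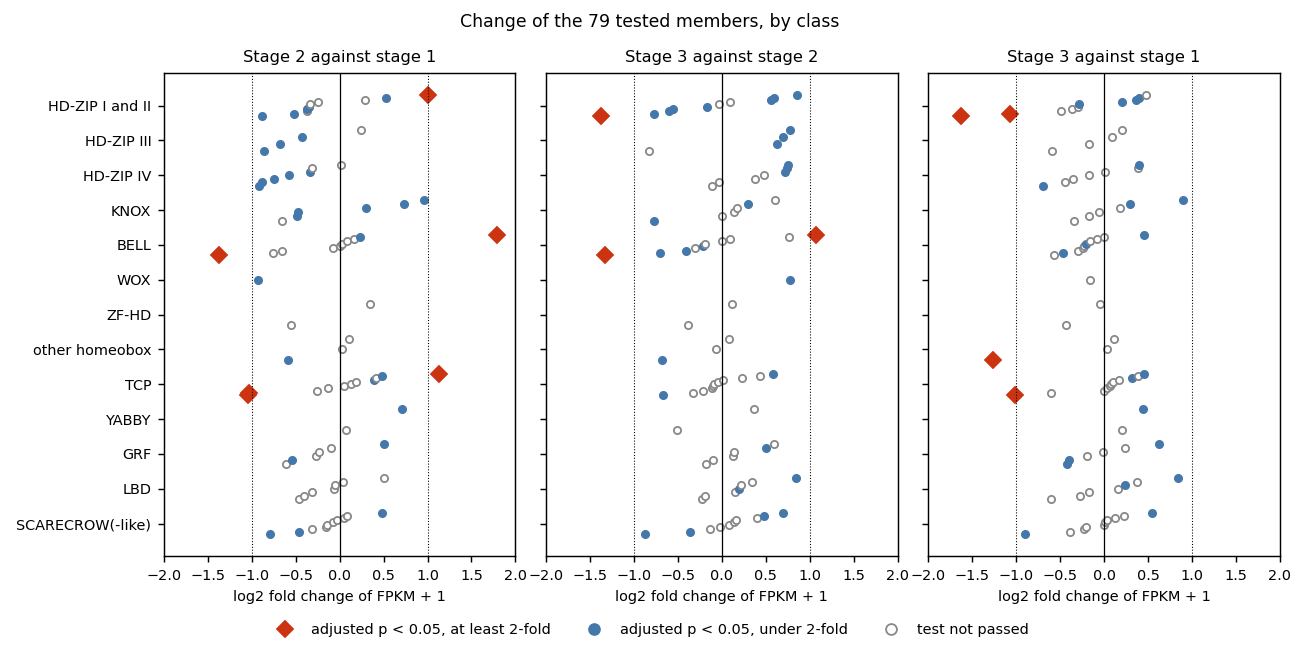
Log2 fold change of FPKM + 1 (horizontal axis) of each of the 79 tested genes, 1 row per class, for each comparison of stages. Red diamonds are the called genes, blue points passed limma's test under 2-fold and open points did not pass it. Apart from the BEL1-like gene at 1.79 and the ATHB-12-like gene at −1.63, the other points lie between −1.38 and 1.13.

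The class I and II HD-ZIP genes held the highest levels of the whole set. The ATHB-6-like gene Cs1g20000, whose Arabidopsis namesake dampens responses to abscisic acid, had a mean of 470 ± 22.2 FPKM at stage 1, 680 ± 32.5 at stage 2 and 605 ± 20.3 at stage 3 (SD, n = 3 libraries each). Its stage 2 libraries, and its stage 3 libraries, lay above every stage 1 library, with log2 fold changes of 0.53 at stage 2 and 0.36 at stage 3 against stage 1 (limma, adjusted p = 1e-05 and 0.00028). Of the 10 tested genes of these classes, 2 rose and 4 fell at stage 2 against stage 1 (21.2% and 17.1% of all genes), 3 rose and 5 fell at stage 3 against stage 2 (16.2% and 19.8%), and 3 rose and 3 fell at stage 3 against stage 1 (14.4% and 12.9%).

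Both of the class I and II genes called lower over the whole interval have Arabidopsis namesakes linked to water deficit. The ATHB-12-like gene Cs5g01480, named for a factor that Arabidopsis makes more of when water is short, had 106, 124 and 118 FPKM at stage 1, 85.6, 101 and 107 FPKM at stage 2 and 37.9, 41.7 and 31.4 FPKM at stage 3. Stage 2 overlapped stage 1 and did not pass the test (log2 fold change −0.25, adjusted p = 0.099), while all stage 3 libraries lay below every earlier one. On the log2 scale the change at stage 3 was −1.38 ± 0.11 (SE) against stage 2 and −1.63 ± 0.11 against stage 1 (limma, adjusted p = 2.1e-06 and 7.5e-07). The mean at stage 3 was 0.378 times that of stage 2 and 0.319 times that of stage 1.

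A stepwise fall was seen for the HAT22-like gene Cs1g21160, a class II gene named for a factor through which abscisic acid slows growth in Arabidopsis. It had 176, 181 and 174 FPKM at stage 1, 124, 117 and 128 FPKM at stage 2 and 83.0, 85.1 and 82.4 FPKM at stage 3. The stages did not overlap, each being lower than the one before. The log2 fold changes were −0.52 at stage 2 against stage 1, −0.55 at stage 3 against stage 2 and −1.07 ± 0.05 (SE) at stage 3 against stage 1 (limma, adjusted p = 9.6e-06, 5.5e-06 and 3.5e-08), and only the last reached 2-fold.

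The HAT5-like gene Cs7g04410, named for a class I factor of leaf growth, was the class's called rise. It had 9.76, 12.4 and 10.2 FPKM at stage 1, 22.8, 20.4 and 24.6 FPKM at stage 2 and 14.2, 15.97 and 13.4 FPKM at stage 3, so that stage 2 stood above both other stages without overlap. The log2 fold change was 1.01 ± 0.12 (SE) at stage 2 against stage 1 (limma, adjusted p = 4.8e-05), −0.60 at stage 3 against stage 2 (adjusted p = 0.002) and 0.40 at stage 3 against stage 1 (adjusted p = 0.025, and up to 0.0946 without stage 1 replicate 1 or 3 or stage 3 replicate 1 or 2). Its place just past 2-fold was not firm: the stage 2 value was 0.93 after median scaling and after quantile normalization, and 0.943, 0.971, 0.997 and 0.946 without stage 1 replicate 1, stage 1 replicate 3, stage 2 replicate 1 and stage 2 replicate 3, always with an adjusted p under 0.05.

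A pair of class II genes dipped at stage 2. The HAT4-like gene Cs5g08460, named for a shade-response factor, had 178, 160 and 166 FPKM at stage 1, 133, 127 and 135 FPKM at stage 2 and 190, 193 and 200 FPKM at stage 3. Its log2 fold change was −0.35 at stage 2 against stage 1 (limma, adjusted p = 0.00035) and 0.55 at stage 3 against stage 2 (adjusted p = 9.3e-06). The HAT14-like gene Cs7g01220 had 22.1, 19.2 and 18.6 FPKM at stage 1, 12.04, 9.91 and 9.11 FPKM at stage 2 and 15.4, 14.7 and 18.0 FPKM at stage 3. It fell by 0.89 on the log2 scale at stage 2 against stage 1 (adjusted p = 0.00018) and was higher at stage 3 than at stage 2 by 0.59 (adjusted p = 0.0033). For both genes the stage 2 libraries lay below all those of the other stages.

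Of the 4 class III HD-ZIP genes, 3 fell at stage 2 against stage 1 and rose at stage 3 against stage 2 by limma's test. Over all genes tested, 9.26% did both. The same 3 class III genes did so after median scaling and after quantile normalization. The summed FPKM of the class was 108 ± 5.08 at stage 1, 68.6 ± 0.687 at stage 2 and 107 ± 7.0 at stage 3 (SD, n = 3 each). None of the 4 passed the test at stage 3 against stage 1.

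The REVOLUTA-like gene Cs8g16510, named for a factor of meristem formation and of the upper side of leaves, was the highest of them. It had 56.2, 47.4 and 48.2 FPKM at stage 1, 27.7, 27.7 and 26.4 FPKM at stage 2 and 45.3, 46.2 and 42.9 FPKM at stage 3. All stage 2 libraries lay below those of both other stages, with log2 fold changes of −0.87 ± 0.08 (SE) at stage 2 against stage 1 and 0.70 ± 0.08 at stage 3 against stage 2 (limma, adjusted p = 5.4e-06 and 3e-05). The fall was under 2-fold, the mean at stage 2 being 0.538 times that at stage 1.

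Cs2g09770, matched to ATHB-14 (PHABULOSA in Arabidopsis, a factor of the upper leaf side), had 25.7, 26.6 and 28.0 FPKM at stage 1, 16.8, 16.4 and 15.6 FPKM at stage 2 and 29.7, 26.9 and 29.1 FPKM at stage 3. Cs4g19310, matched to ATHB-8, a factor of early vascular cells, had 26.3, 24.7 and 25.5 FPKM at stage 1, 18.8, 17.9 and 19.5 FPKM at stage 2 and 31.5, 31.3 and 26.0 FPKM at stage 3. In both genes stage 2 was lower without overlap, by −0.68 and −0.42 on the log2 scale against stage 1 (limma, adjusted p = 4e-05 and 0.003), and stage 3 was above stage 2 by 0.78 and 0.63 (adjusted p = 1.5e-05 and 0.00021). The second REVOLUTA match, Cs7g17275, had 5.54, 5.29 and 4.58 FPKM at stage 1, 4.61, 6.70 and 7.80 FPKM at stage 2 and 5.77, 4.57 and 0.78 FPKM at stage 3. It passed the test in no comparison, and its stages overlapped, although it passed as lower at stage 3 against stage 2 without stage 3 replicate 1 (−1.20, adjusted p = 0.0424).

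The class IV genes, whose Arabidopsis namesakes act in the outermost cell layer, included 5 of 7 that fell at stage 2 against stage 1, and 0 that rose, beside 17.1% lower and 21.2% higher over all genes tested. There were 4 falls after quantile normalization and 3 without stage 1 replicate 2, stage 2 replicate 1 or stage 2 replicate 2. Of the 7, 3 rose and 0 fell at stage 3 against stage 2 (4 rose after median scaling), beside 16.2% and 19.8% of all genes. Their summed FPKM was 49.7 ± 0.651 at stage 1, 33.4 ± 2.20 at stage 2 and 48.0 ± 1.77 at stage 3 (SD, n = 3 each), so that the class had a low total beside the other HD-ZIP classes.

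The HDG2-like gene Cs2g21640, named for a factor that promotes stomata in Arabidopsis, had the deepest dip of the class on the log2 scale, with 12.6, 13.5 and 14.0 FPKM at stage 1, 7.90, 7.60 and 4.66 FPKM at stage 2 and 10.9, 9.44 and 8.37 FPKM at stage 3. Stage 2 against stage 1 gave a log2 fold change of −0.92 ± 0.17 (SE; limma, adjusted p = 0.0015), and stage 3 lay between the other stages without passing the test against either. The HDG5-like gene Cs3g09300 had 1.75, 2.24 and 2.29 FPKM at stage 2, against 4.26, 5.89 and 4.10 FPKM at stage 1, a log2 fold change of −0.89 (adjusted p = 0.0036). The HDG11-like gene Cs5g16510, named for a factor that improves drought tolerance when made in excess in Arabidopsis, had 1.19, 1.59 and 1.60 FPKM at stage 2, against 3.29, 2.37 and 3.79 FPKM at stage 1 (log2 fold change −0.74, adjusted p = 0.01). Both were higher again at stage 3 than at stage 2, by 0.72 and 0.75 on the log2 scale (adjusted p = 0.013 and 0.011). Without stage 3 replicate 1, the rise of Cs3g09300 no longer passed (adjusted p = 0.0526).

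The ANTHOCYANINLESS 2-like gene Cs9g16980, the highest of class IV, had 9.08, 10.2 and 11.1 FPKM at stage 1, 7.01, 8.01 and 8.26 FPKM at stage 2 and 13.9, 12.6 and 14.3 FPKM at stage 3. Its stage 3 libraries were above all others, and the log2 fold change at stage 3 against stage 2 was 0.74 ± 0.12 (SE; limma, adjusted p = 0.00049). The fall at stage 2 (−0.34, adjusted p = 0.039) was lost when any of stage 1 replicates 2 and 3, stage 2 replicates 1 and 2 or stage 3 replicate 1 was left out, with adjusted p up to 0.137. Likewise, the MERISTEM L1-like gene Cs2g07690 fell at stage 2 (−0.58, adjusted p = 0.038), with adjusted p = 0.065 after quantile normalization, 0.0514 with a pseudocount of 0.1 and up to 0.135 when stage 1 replicate 1 or 2 or stage 2 replicate 1 or 2 was left out. It stayed low, with 1.28, 1.70 and 1.54 FPKM at stage 3, against 3.60, 3.07 and 2.55 FPKM at stage 1 (−0.70, limma, adjusted p = 0.022). That difference passed after median scaling and quantile normalization (adjusted p = 0.0149 and 0.018). Without stage 1 replicate 1 or 2 or stage 3 replicate 1 it did not (adjusted p up to 0.0918). The other MERISTEM L1-like gene, Cs5g29570, and the GLABRA 2-like gene, Cs1g15200, passed the test in no comparison.

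**Figure D2:**
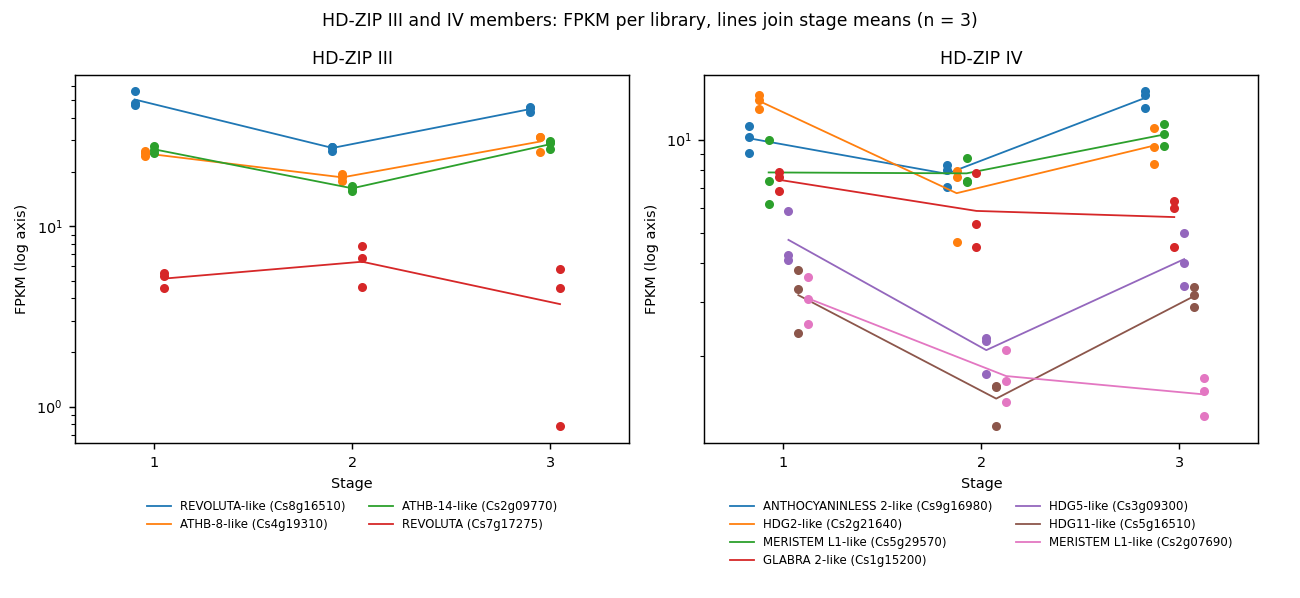
FPKM per library on a log axis at stages 1, 2 and 3 for the 4 class III (left) and 7 class IV (right) HD-ZIP genes, with lines through the stage means (n = 3). REVOLUTA-like Cs8g16510, ATHB-8-like Cs4g19310 and ATHB-14-like Cs2g09770 have their lowest libraries at stage 2, with REVOLUTA-like between 26.4 and 27.7 FPKM there.

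The KNOX genes moved in both directions. Of the 6, 3 rose and 2 fell at stage 2 against stage 1 (21.2% and 17.1% of all genes), and none reached 2-fold in any comparison. Without stage 1 replicate 2 or stage 2 replicate 2, 2 rose and 1 fell. Their summed FPKM was 227 ± 11.1 at stage 1, 332 ± 2.11 at stage 2 and 310 ± 10.2 at stage 3 (SD, n = 3 each). The sum takes in all 6 genes, and which of them are class I KNOX genes was not checked.

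The knotted-1-like 2-like gene Cs3g16460 took the largest part of this sum. It had 78.6, 82.3 and 70.3 FPKM at stage 1, 129, 124 and 132 FPKM at stage 2 and 146, 139 and 148 FPKM at stage 3. Each stage lay above the one before without overlap, but only the first step passed the test (log2 fold change 0.73 ± 0.06 (SE), limma, adjusted p = 4.7e-06). The change at stage 3 against stage 1 was 0.90 ± 0.06 (adjusted p = 1.1e-06).

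The HD1-like gene Cs5g10080 was high at stage 2 alone, with 64.9, 49.9 and 51.4 FPKM at stage 1, 112, 109 and 101 FPKM at stage 2 and 56.4, 63.7 and 68.3 FPKM at stage 3. It changed by 0.95 ± 0.10 (SE) on the log2 scale at stage 2 against stage 1 and −0.77 ± 0.10 at stage 3 against stage 2 (limma, adjusted p = 2.2e-05 and 0.00012), a ratio of means of 1.94 and 0.583. The SHOOT MERISTEMLESS-like gene Cs2g02590, the class I KNOX gene that in Arabidopsis keeps the shoot meristem, had 61.9, 52.2 and 57.9 FPKM at stage 1, 64.7, 73.2 and 73.6 FPKM at stage 2 and 65.8, 75.6 and 70.1 FPKM at stage 3. Both later stages lay above stage 1, each by 0.29 ± 0.08 on the log2 scale (adjusted p = 0.014 and 0.019). Leaving out stage 1 replicate 2 or stage 2 replicate 2 ended the passing at stage 2, with adjusted p up to 0.0633, and leaving out stage 1 replicate 2 or stage 3 replicate 2 that at stage 3, with adjusted p up to 0.0829.

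Another 2 KNOX genes were lower at stage 2. The knotted-1-like 6-like gene Cs7g08990 had 17.8, 16.7 and 16.3 FPKM at stage 2, below the 22.8, 25.2 and 24.0 FPKM of stage 1 (log2 fold change −0.48, adjusted p = 0.00077). At stage 3 it had 20.6, 20.5 and 22.2 FPKM, above stage 2 by 0.30 (adjusted p = 0.014, and 0.0512 without stage 3 replicate 3). The knotted-1-like 10-like gene Cs3g15150 had 7.05, 5.48 and 7.08 FPKM at stage 2 and 8.90, 10.7 and 8.94 FPKM at stage 1 (−0.48, adjusted p = 0.02, and up to 0.0823 without stage 1 replicate 2 or stage 2 replicate 2). The second knotted-1-like 6-like gene, Cs5g05700, ranged between 1.25 and 5.62 FPKM and passed no test.

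Among the BELL genes, partners of the KNOX proteins, the BEL1-like homeodomain 1-like gene orange1.1t04599 had the largest rise of the whole set. It had 39.7, 42.5 and 40.2 FPKM at stage 1, 137, 133 and 163 FPKM at stage 2 and 56.0, 58.2 and 55.2 FPKM at stage 3. The 3 stages did not overlap, and stage 2 was the highest. Stage 2 against stage 1 gave a log2 fold change of 1.79 ± 0.08 (SE; limma, adjusted p = 1.6e-08), a ratio of means of 3.54, and stage 3 against stage 2 gave −1.33 ± 0.08 (adjusted p = 1.4e-07). Stage 3 remained above stage 1 by 0.46 (adjusted p = 0.00089). The gene lies on an unplaced scaffold.

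The other gene with the same match name, Cs6g13660, was the highest BELL gene. It had 287, 294 and 282 FPKM at stage 1, 328, 331 and 357 FPKM at stage 2 and 211, 214 and 198 FPKM at stage 3. Its stages did not overlap either, but stage 3 was here the lowest. The log2 fold changes were 0.23 at stage 2 against stage 1, −0.70 at stage 3 against stage 2 and −0.47 at stage 3 against stage 1 (limma, adjusted p = 0.0033, 8.5e-07 and 3.2e-05).

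The ATH1-like gene Cs4g18650 went the opposite way at low FPKM. ATH1 is a BELL protein that in Arabidopsis acts at the base of the shoot and in the repression of flowering. The lemon gene had 3.09, 2.41 and 2.07 FPKM at stage 1, 0.36, 0.57 and 0.15 FPKM at stage 2 and 1.20, 2.15 and 2.31 FPKM at stage 3. Stage 2 lay below both other stages in every library. Log2 fold changes were −1.37 ± 0.24 (SE) at stage 2 against stage 1 and 1.07 ± 0.24 at stage 3 against stage 2 (limma, adjusted p = 0.00096 and 0.005). The rise fell below 2-fold after quantile normalization (0.87), without stage 2 replicate 3 (0.96) and without stage 3 replicate 3 (0.96). Its libraries with at least 1 FPKM were those of stages 1 and 3, so that it entered the test through the stages where it was high. How many reads of this gene stand behind such low FPKM is not given in the sources used here.

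Of the 10 BELL genes tested, 2 rose and 1 fell at stage 2 against stage 1 (21.2% and 17.1% of all genes). At stage 3 against stage 2, 1 rose and 4 fell (16.2% and 19.8% of all genes). The BEL1-like 9-like gene Cs7g32080 (3.4, 2.95 and 2.72 FPKM at stage 1, 1.57, 0.52 and 2.40 at stage 2 and 1.91, 3.63 and 3.78 at stage 3) did not pass the test, with log2 fold changes of −0.76 at stage 2 against stage 1 and 0.76 at stage 3 against stage 2 (adjusted p = 0.065 and 0.068). The BEL1-like 9-like gene Cs6g07100, with 23.1, 24.2 and 21.2 FPKM at stage 3 and 31.5, 28.7 and 31.3 FPKM at stage 2, fell by 0.40 on the log2 scale (limma, adjusted p = 0.0031). The BEL1 homolog Cs5g03250, named for the factor of ovule integuments, kept between 17.8 and 20.6 FPKM in all libraries. The class's summed FPKM was 506 ± 13.7 at stage 1, 660 ± 39.0 at stage 2 and 419 ± 18.2 at stage 3 (SD, n = 3 each).

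**Figure D3:**
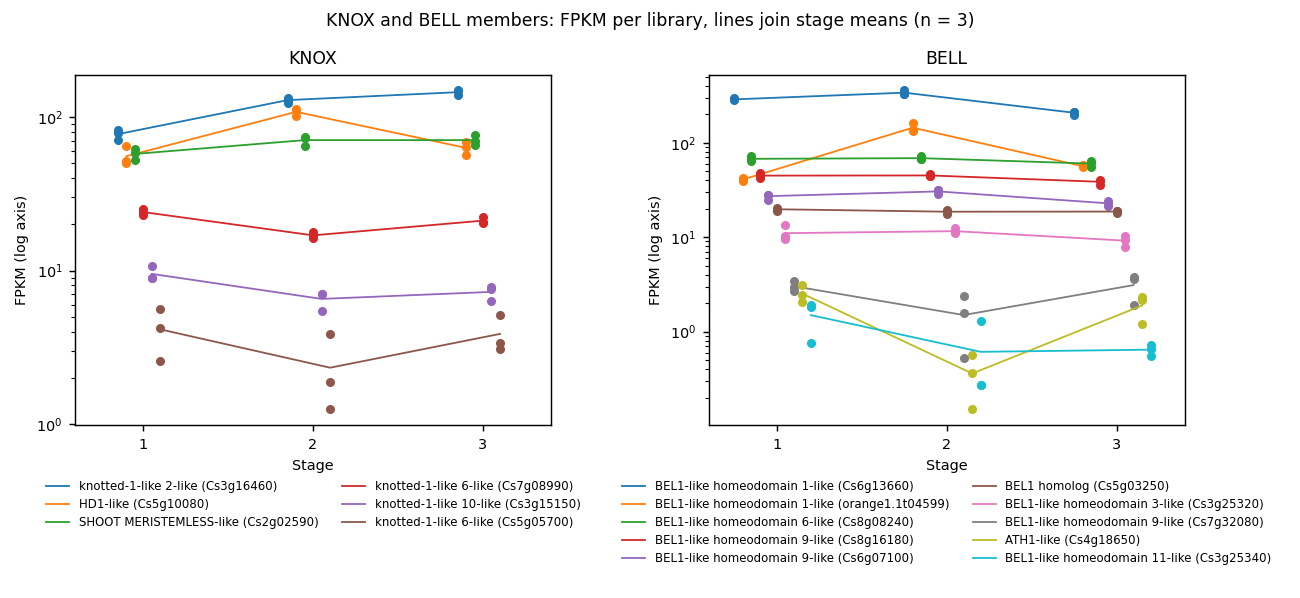
FPKM per library on a log axis at stages 1, 2 and 3 for the 6 KNOX (left) and 10 BELL (right) genes, with lines through the stage means (n = 3). BEL1-like orange1.1t04599 has its top libraries at stage 2 (133 to 163 FPKM) and ATH1-like Cs4g18650 its lowest there (0.15 to 0.57 FPKM).

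The WUSCHEL-like gene Cs1g25270, named for the factor that maintains stem cells in the shoot meristem, was near the limit of detection. It had 1.14, 0.80 and 1.13 FPKM at stage 1, was listed at 0, 0 and 0.18 FPKM at stage 2 and had 1.02, 0.65 and 0.78 FPKM at stage 3. All stage 2 libraries lay below the others, with a log2 fold change of −0.93 ± 0.24 (SE; limma, adjusted p = 0.0091) at stage 2 against stage 1 and 0.78 ± 0.24 (adjusted p = 0.025) at stage 3 against stage 2. The second change no longer passed after quantile normalization (adjusted p = 0.0782) or when stage 2 replicate 1, stage 2 replicate 2 or stage 3 replicate 3 was left out (adjusted p up to 0.0647). Without stage 1 replicate 1, stage 1 replicate 3 or stage 3 replicate 1 the gene was below the limit and not tested. With 1.14 FPKM as its highest value, it entered the test through stage 1 and stage 3 libraries, so that a low stage 2 was the pattern the limit let through.

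Of the remaining genes with homeobox in their match name, the zinc finger homeobox protein 4-like gene Cs2g16570 was the one called. Whether its protein holds a homeodomain was not checked. The gene had 43.9, 41.3 and 39.3 FPKM at stage 1, 31.3, 26.2 and 24.5 FPKM at stage 2 and 16.2, 17.7 and 16.1 FPKM at stage 3. Like the HAT22-like gene, it was lower at each stage than at the one before, without overlap. The log2 fold changes were −0.59 at stage 2 against stage 1, −0.68 at stage 3 against stage 2 and −1.27 ± 0.10 (SE) at stage 3 against stage 1 (limma, adjusted p = 0.00058, 0.00023 and 2.1e-06). The LUMINIDEPENDENS-like gene Cs5g32690, named for a flowering-time regulator of Arabidopsis, kept between 42.3 and 49.1 FPKM in all libraries and passed no test. Nor did the HAT3.1-like gene Cs8g04630 (5.50 to 8.03 FPKM) or the ZF-HD genes Cs3g24930 (5.32 to 9.47 FPKM) and Cs3g01640 (0.30 to 1.22 FPKM).

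**Figure D4:**
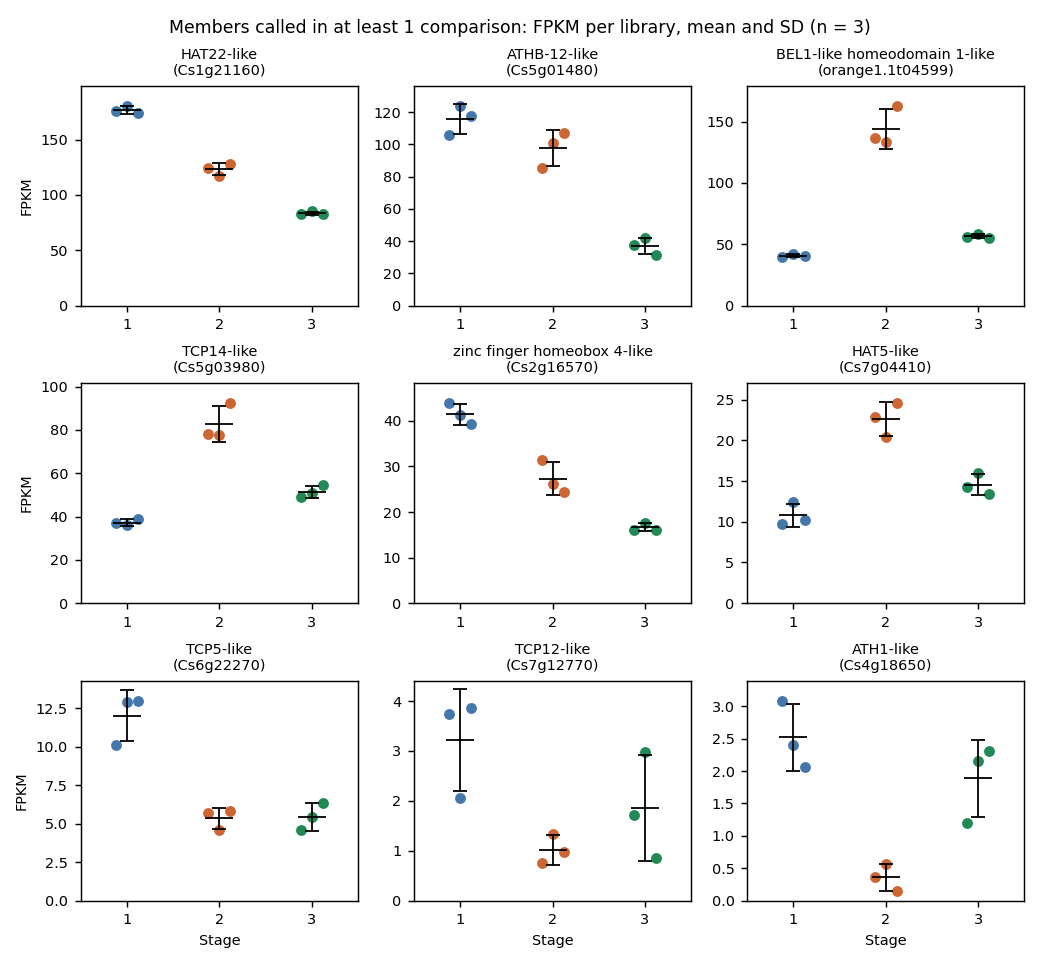
FPKM of each library (points) and mean with SD (n = 3) at stages 1, 2 and 3 for the 9 genes called in at least 1 comparison, 1 panel per gene with its own axis from 0. BEL1-like orange1.1t04599, HAT5-like Cs7g04410 and TCP14-like Cs5g03980 peak at stage 2, while HAT22-like Cs1g21160 and zinc finger homeobox 4-like Cs2g16570 are lower at each stage than at the stage before.

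TCP14-like Cs5g03980, the gene read by the primers printed above, led the TCP genes in level and in rise. TCP14 is a class I TCP factor that promotes growth of the stem and of embryos in Arabidopsis. The lemon gene had 36.8, 36.0 and 38.8 FPKM at stage 1, 78.1, 77.8 and 92.4 FPKM at stage 2 and 49.1, 50.7 and 54.5 FPKM at stage 3. The stages did not overlap, with stage 2 on top and stage 3 between. The log2 fold change was 1.13 ± 0.08 (SE) at stage 2 against stage 1, −0.67 ± 0.08 at stage 3 against stage 2 and 0.46 at stage 3 against stage 1 (limma, adjusted p = 7e-07, 4.5e-05 and 0.0011).

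The TCP5-like gene Cs6g22270 belongs by its name to the TCP factors that bring cell division in leaves to an end. It had 10.1, 12.9 and 13 FPKM at stage 1, 5.66, 4.58 and 5.83 FPKM at stage 2 and 4.57, 5.40 and 6.36 FPKM at stage 3. Stages 2 and 3 overlapped each other and lay below stage 1, with log2 fold changes of −1.03 ± 0.16 (SE) and −1.02 ± 0.16 against stage 1 (limma, adjusted p = 0.00034 and 0.00054). Stage 3 against stage 2 gave 0.02 (adjusted p = 0.95). Without stage 1 replicate 2 or 3 the falls were under 2-fold at stage 2 (−0.98 in each case) and at stage 3 (−0.96 in each case), and so they were without stage 2 replicate 2 (−0.94 at stage 2) and without stage 3 replicate 1 (−0.92 at stage 3).

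TCP12 is a factor of axillary buds in Arabidopsis, where it restrains their outgrowth with its close relative BRANCHED1. The TCP12-like gene Cs7g12770 had 3.75, 2.05 and 3.86 FPKM at stage 1, 0.75, 1.34 and 0.97 FPKM at stage 2 and 1.72, 2.97 and 0.86 FPKM at stage 3. Stage 2 was below stage 1 in every library, and stage 3 overlapped both. The log2 fold change at stage 2 against stage 1 was −1.04 ± 0.30 (SE; limma, adjusted p = 0.017), −0.92 after quantile normalization (adjusted p = 0.032), and −0.94, −0.92 and −0.94 without stage 1 replicate 1, stage 1 replicate 3 and stage 2 replicate 1, where the test was no longer passed (adjusted p = 0.0628, 0.0653 and 0.0534).

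Among the 11 tested TCP genes, 3 rose and 2 fell at stage 2 against stage 1 (21.2% and 17.1% of all genes). At stage 3, 1 rose and 1 fell against stage 2 (16.2% and 19.8%), and 2 rose and 1 fell against stage 1 (14.4% and 12.9%). At stage 2, 1 rose and 3 fell after median scaling and after quantile normalization, and 1 rose and 1 fell without stage 1 replicate 1 or stage 2 replicate 1. Of the rises at stage 2, those of TCP23-like Cs3g22260 (0.48, adjusted p = 0.018) and TCP20-like Cs7g11120 (0.38, adjusted p = 0.024) were lost after median scaling (adjusted p = 0.0536 and 0.0508) and after quantile normalization (0.0551 and 0.0535). The TCP9-like gene Cs5g10130 had 31.2, 34.6 and 31.4 FPKM at stage 3 and 22.0, 24.4 and 18.1 FPKM at stage 2, a rise of 0.58 on the log2 scale (adjusted p = 0.0011).

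The YABBY, GRF and LBD genes held no called gene. YABBY 4-like Cs7g08890, named for the factor of the outer ovule integument, had 1.84, 2.75 and 2.42 FPKM at stage 2 and 1.11, 1.26 and 0.73 FPKM at stage 1. Its log2 fold change was 0.71 ± 0.23 (SE; limma, adjusted p = 0.031, and up to 0.108 without stage 1 replicate 1 or 3 or stage 2 replicate 2 or 3). YABBY 2-like Cs8g14260 had 14.5, 18.8 and 13.3 FPKM at stage 3, above the 11.5, 11.9 and 9.92 FPKM of stage 1, by 0.44 (adjusted p = 0.035, but 0.0512 after median scaling and 0.0538 after quantile normalization). Leaving out stage 1 replicate 1, 2 or 3 or stage 3 replicate 1 or 2 also ended this passing, with adjusted p up to 0.134.

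Growth-regulating factors drive cell division in young leaves. Of the 6 GRF genes, GRF1-like Cs1g21350 had 13.2, 13.8 and 13.6 FPKM at stage 2, below the 20.6, 18.8 and 20.9 FPKM of stage 1 (log2 fold change −0.54 ± 0.13 (SE), limma, adjusted p = 0.006). GRF12-like Cs5g09850 was the opposite, with 11.9, 13.6 and 10.5 FPKM at stage 1, 17.7, 18.7 and 16.1 FPKM at stage 2 and 22.9, 18.1 and 16.7 FPKM at stage 3. Against stage 1 it was higher by 0.51 ± 0.13 on the log2 scale at stage 2 (adjusted p = 0.01) and by 0.63 at stage 3 (adjusted p = 0.0042). The other 4 did not pass at stage 2 against stage 1.

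LBD proteins are named for a gene expressed where organs part from the meristem. None of the 7 tested LBD genes passed at stage 2 against stage 1, where their median log2 fold change was −0.07. The LBD41-like gene Cs7g26710 (−0.32, adjusted p = 0.072) passed as lower after median scaling (−0.39, adjusted p = 0.0463) and quantile normalization (−0.39, adjusted p = 0.0462), and without stage 1 replicate 3 or stage 2 replicate 1 (adjusted p down to 0.0395). The LBD38-like gene Cs1g21830, whose Arabidopsis namesake holds down nitrate-responsive genes, was the highest, with 202, 210 and 225 FPKM at stage 3, above the 192, 191 and 171 FPKM of stage 2 by 0.20 on the log2 scale (limma, adjusted p = 0.023). That step no longer passed when stage 2 replicate 3 or stage 3 replicate 3 was left out (adjusted p up to 0.0855). LBD25-like Cs2g27530, second by level, lay between 107 and 146 FPKM and passed no test.

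SCARECROW-type proteins of the GRAS family pattern tissue layers and take part in light and gibberellin signalling. SCARECROW-like 13-like Cs2g01990, whose Arabidopsis namesake acts in red light signalling, had 219, 218 and 221 FPKM at stage 1, 177, 201 and 220 FPKM at stage 2 and 335, 335 and 298 FPKM at stage 3. Stage 3 was above both earlier stages without overlap, by 0.70 ± 0.07 (SE) on the log2 scale against stage 2 and 0.55 ± 0.07 against stage 1 (limma, adjusted p = 2.3e-05 and 0.0002). SCARECROW-like 3-like Cs7g02550, named for a promoter of gibberellin responses, moved the other way. It had 10.5, 9.89 and 9.42 FPKM at stage 1, 9.73, 8.76 and 10.7 FPKM at stage 2 and 4.93, 5.27 and 4.33 FPKM at stage 3. Stage 3 lay below both without overlap, with log2 fold changes of −0.88 ± 0.13 against stage 2 and −0.90 ± 0.13 against stage 1 (adjusted p = 0.00024 and 0.00026).

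The SCARECROW-like gene Cs6g10700, whose Arabidopsis namesake patterns the endodermis, dipped at stage 2, with 16.4, 14.6 and 15.4 FPKM at stage 1, 10.6, 10.9 and 11.4 FPKM at stage 2 and 16.5, 14.5 and 15.96 FPKM at stage 3. It changed by −0.46 on the log2 scale at stage 2 against stage 1 and 0.48 at stage 3 against stage 2 (limma, adjusted p = 0.0027 and 0.0024). Of the 10 tested genes of this class, 1 rose and 2 fell at stage 2 against stage 1 (21.2% and 17.1% of all genes), and 2 rose and 2 fell at stage 3 against stage 2 (16.2% and 19.8%). The falls at stage 2 numbered 4 after median scaling, 3 after quantile normalization and 1 without stage 1 replicate 1 or 2 or stage 2 replicate 1 or 2. There was 1 fall at stage 3 against stage 2 without stage 2 replicate 2 or 3 or stage 3 replicate 1 or 3.

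Over both steps, 12 of the 79 genes fell at stage 2 and rose at stage 3 (15.2%, beside 9.26% of all genes tested), and 7 rose and then fell (8.86%, beside 11.98%). Another 2 fell in both steps (2.53%, beside 1.16%), 0 rose in both (beside 0.846% of all genes), and 33 passed the test in neither (41.8%, beside 48.9%). Stage 2 enters both steps, so its libraries alone can make the steps opposite in sign.

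There were 10 match names shared by 22 tested genes. Beside the BEL1-like pair, HAT5-like Cs2g28330 had 36.9, 34.1 and 33.2 FPKM at stage 2, below the 47.4, 47.8 and 41.0 FPKM of stage 1 (log2 fold change −0.38, limma, adjusted p = 0.0049), while HAT5-like Cs7g04410 rose. TCP5-like Cs5g12070 lay between 2.72 and 5.16 FPKM in all libraries and passed no test, unlike TCP5-like Cs6g22270. The second ATHB-12-like gene, orange1.1t02547, had 1.51, 1.58 and 1.95 FPKM at stage 3 and 3.19, 3.46 and 4.07 FPKM at stage 2, a log2 fold change of −0.77 (adjusted p = 0.0077), in the same direction as Cs5g01480. Differences between the genes of a pair were not tested, and how reads shared by such copies were counted is not given in the sources used here.

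**Figure D5:**
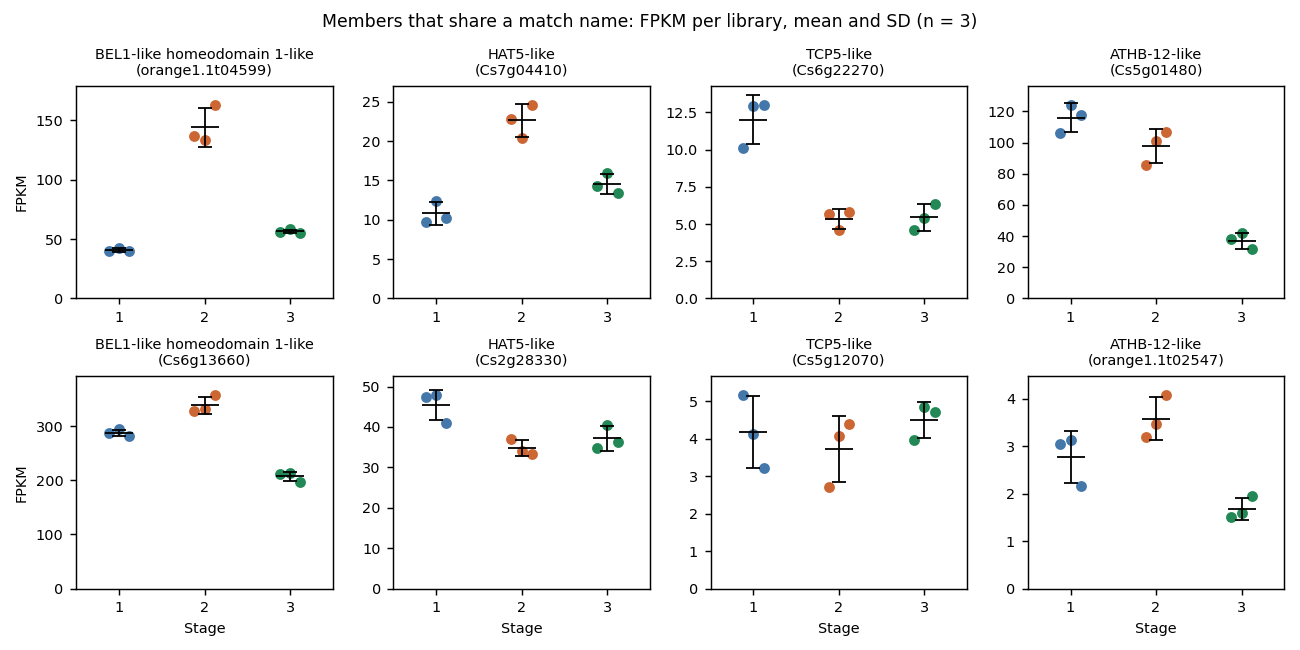
FPKM per library (points) with mean and SD (n = 3) at stages 1, 2 and 3 for 4 pairs of genes with the same match name, 1 pair per column and each panel with its own axis from 0. Cs7g04410 is highest at stage 2 while Cs2g28330, the other HAT5-like gene, is highest at stage 1.

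Genes of families with members known to act with these factors were searched for by name outside the set: organ boundary CUP-SHAPED COTYLEDON, CLAVATA, DELLA, SHORT-ROOT, ARGONAUTE and gibberellin oxidase genes. The words took in whole families, such as ARGONAUTE 2-like and 5-like genes among the 9 ARGONAUTE genes tested. Whether each gene acts with these factors was not checked. Of 38 such genes, 22 could be tested. At stage 2 against stage 1, 0 were called higher and 2 lower (3.18% and 4.66% of all genes), with 1 higher and 8 lower at an adjusted p under 0.05 (21.2% and 17.1%) and a median log2 fold change of −0.27. At stage 3 against stage 2, 4 were called higher and 0 lower (4.92% and 2.54% of all genes), with 7 higher and 1 lower at an adjusted p under 0.05 (16.2% and 19.8%) and a median of 0.26. At stage 3 against stage 1, 1 was called higher and 0 lower (2.69% and 2.24% of all genes), with 3 higher and 2 lower at an adjusted p under 0.05 (14.4% and 12.9%). The ARGONAUTE 2-like genes Cs2g10760 and Cs2g10770 were 2 of the 4 called higher at stage 3 against stage 2. Cs2g10760 was also the 1 called higher at stage 3 against stage 1.

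The genes called lower at stage 2 were both CUP-SHAPED COTYLEDON genes, NAC factors that mark the boundary between meristem and organ. The CUC2-like gene Cs1g08000 had 3.06, 1.61 and 2.38 FPKM at stage 1, 0.33, 0.33 and 0.35 FPKM at stage 2 and 2.04, 1.63 and 1.90 FPKM at stage 3. Stage 2 lay below both other stages, with log2 fold changes of −1.30 against stage 1 and, at stage 3 against stage 2, 1.09 (limma, adjusted p = 0.00077 and 0.0027). The CUC3-like gene Cs3g27630 had 1.46, 1.60 and 3.24 FPKM at stage 1, 0.91, 0 and 0.20 FPKM at stage 2 and 2.46, 1.62 and 1.22 FPKM at stage 3, with −1.19 and 1.04 (adjusted p = 0.012 and 0.024). Its fall was no longer called without stage 1 replicate 3 (−0.94, adjusted p = 0.0565) or stage 2 replicate 2 (−0.99, adjusted p = 0.045), and its rise was lost after quantile normalization or without stage 2 replicate 2 or 3 or stage 3 replicate 1 or 2 (0.85 to 1.07, adjusted p between 0.0515 and 0.0859). The rise of Cs1g08000 was 0.91 after quantile normalization. Neither CUC gene had 1 FPKM in a stage 2 library, so both entered the test through stages 1 and 3, and a low stage 2 was the pattern the limit let through.

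SHORT-ROOT-like Cs1g21500, the gene of SCARECROW's partner, also fell at stage 2, to 10.1 ± 0.465 FPKM, against 17.2 ± 1.14 FPKM at stage 1 (SD, n = 3 each, log2 fold change −0.72, limma, adjusted p = 0.00018). Unlike the SCARECROW-like gene Cs6g10700, it did not pass at stage 3 against stage 2 (0.10). Of 4 tested gibberellin 2-beta-dioxygenase genes, whose enzymes inactivate gibberellin, 3 fell at stage 2 against stage 1 (17.1% of all genes). At stage 3 against stage 2, 2 of them rose (16.2% of all genes). Both counts include orange1.1t01725, which was listed at 0 FPKM in every stage 2 library. It entered the test through stages 1 and 3, so a low stage 2 was the pattern the limit let through. The gibberellin 20 oxidase gene tested, Cs5g03520, passed in no comparison.

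Marker genes of tissues moved with the stages too, and their part in the changes above was not tested. The shoot apex and boundary list, which shares knotted-1-like and BEL1-like genes with the set and of which 15 of 16 were tested, summed to 584 to 624 FPKM at stage 1, 766 to 848 at stage 2 and 564 to 592 at stage 3. By gene, 3 of the 15 rose and 4 fell at stage 2 against stage 1 (21.2% and 17.1% of all genes), with a median log2 fold change of 0.01. The 7 chlorophyll a-b binding genes of green tissue summed to 1130 to 1200 FPKM at stage 1, 2294 to 2884 at stage 2 and 2914 to 3594 at stage 3. Of the 6 tested, 3 were called higher at stage 2 against stage 1 (3.18% of all genes). At stage 3 against stage 2, 2 rose and 3 fell (16.2% and 19.8% of all genes), with a median log2 fold change of −0.31. The sum followed mostly Cs2g03780, with means of 812, 1750 and 2357 FPKM at stages 1, 2 and 3. The 4 cell division genes summed to 91.1 to 102 FPKM at stage 1, 63.7 to 71.8 at stage 2 and 79.5 to 122 at stage 3. Cyclin-B1-2-like Cs6g18950 took most of this sum, with 74.6, 70.0 and 111 FPKM at stage 3. At stage 3 against stage 1, 1 of the 4 fell and 0 rose (12.9% and 14.4% of all genes), and the median log2 fold change was −0.63. At stage 2 against stage 1, 3 of the 4 were called lower (4.66% of all genes), and the list's median log2 fold change was −1.35. Among those called, the cyclin-B2 genes Cs3g27260 and Cs8g01560 had no stage 2 library at 1 FPKM. Both entered the test through other stages, so a low stage 2 was the pattern the limit let through. The 22 genes found by the words for floral organ genes, 13 of them tested, summed to between 148 and 184 FPKM in all libraries. The AGL19-like gene Cs5g10050 alone had 92.0 to 133 of this. The word agamous also took in agamous-like genes such as AGL19-like, AGL61-like, AGL12-like and AGL16-like ones. The sum is therefore not one of floral organ genes alone. Within the list, DEFICIENS-like Cs3g25600 was called lower at stage 2 against stage 1 (−1.02, limma, adjusted p = 0.011) and AGL16-like Cs3g16896 higher (1.21, adjusted p = 0.0034). At stage 3 against stage 2, SEPALLATA 1-like Cs7g11800 was called higher (1.30, limma, adjusted p = 0.0039) and AGL16-like Cs3g16896 lower (−1.03, adjusted p = 0.0091). Cs3g16896 reached 1 FPKM in stage 2 libraries alone (1.30, 2.43 and 1.77 FPKM). A high stage 2 was thus the pattern the limit let through for this gene. The 2 genes found by the words for root, both matched to ROOT HAIR DEFECTIVE 3 proteins, summed to between 64.4 and 80.4 FPKM. Of the 8 dehydrin and late embryogenesis abundant genes, 4 were called lower at stage 2 against stage 1 (4.66% of all genes). The sum of the list, 2969 to 3754 FPKM at stage 2, overlapped the 2958 to 3196 FPKM of stage 1. The Lea5 gene Cs9g04210 took most of this sum, with means of 2090 and 2942 FPKM at stages 1 and 2. It was the 1 gene of the list that rose, while 6 fell (21.2% and 17.1% of all genes), and the median log2 fold change was −1.05. Among those called, Cs1g13160 and Cs8g07520 had no stage 2 library at 1 FPKM, so for them too a low stage 2 was the pattern let through. No gene of these lists was at 0 in all libraries.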

How the data were processed

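Total RNA from 9 lemon bud libraries was sequenced on an Illumina instrument, and the authors deposited 1 table of FPKM per gene and library. They filtered reads with the FASTX-Toolkit and mapped them to the sweet orange genome with BWA. Their versions, the genome build and the program that counted reads were not given in the sources used here. FPKM carry no read depth, so no counting intervals are given, and a low FPKM is less precise than a high one. Stages were taken from the labels. Genes with at least 1 FPKM in at least 3 of 9 libraries were tested in R 4.3.3 with limma 3.58.1 (trend) on log2(FPKM + 1), with 3 stages in 1 fit and Benjamini-Hochberg adjustment over all genes tested. The study used NOISeq, which was not run. A gene was called at an adjusted p under 0.05 and at least 2-fold; "rose" and "fell" mean an adjusted p under 0.05 at any fold. Tables and plots used Python 3.11.15, numpy 2.4.6, pandas 2.3.3 and matplotlib 3.10.9.

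Genes were named if they were called, had the highest mean of their class or stand in the study's supplementary tables (7 of the called genes do, and were thus chosen by the study on these samples). Whole classes III, IV and KNOX are given, and other genes were picked for naming once their values had been seen. The gene set and all lists were chosen with earlier results of these data known. Calcyclin was left out of the cyclin-B words. No gene matched the ovate, asymmetric leaves, kanadi or GRF-interacting words. The fit was tested on simulated data. Alternatives were limma without the trend, median scaling, quantile normalization, other filters, a pseudocount of 0.1, pairs of stages alone, a replicate block, other thresholds and each library left out. Promoter motifs were not searched.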

Additional observations from a re-analysis of the deposited data

How the results depend on the processing

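Of the choices tried, the fold threshold, the pseudocount and leaving out stage 1 replicate 3 moved counts of called genes by over 1.5 times. With no fold threshold, 35, 32 and 25 of the 79 genes passed at stage 2 against stage 1, stage 3 against stage 2 and stage 3 against stage 1, and 6800, 6390 and 4845 of all genes, against 6, 3 and 4 and 1391, 1322 and 874 with it. A pseudocount of 0.1, which widens the fold of low genes, gave 12 at stage 2 against stage 1 and 7 at stage 3 against stage 2. Leaving out 1 library at a time, the counts ranged from 3 to 7, from 2 to 4 and from 3 to 4 for the set, the lowest of the first being without stage 1 replicate 3, and from 1350 to 1402, 1294 to 1336 and 833 to 883 for all genes. The replicate numbers did not pair the libraries (correlation of same-numbered deviations between −0.102 and 0.0315), and the replicate block gave 6, 3 and 4 called genes of the set and 1390, 1319 and 872 of all genes. For the genes named by rule, every comparison with an adjusted p under 0.05 was followed through these fits, other thresholds aside. The log2 fold change never changed sign. Counted by gene, comparison and fit, 714 stayed called or not called as before, 19 lost the call and 4 gained it. Only called comparisons could lose a call. A change under 2-fold that no longer passed the test stands among the 714, so these counts do not measure how firm the smaller changes were. The paper gives an approximate number of clean reads per replicate, but the reads counted for each gene are not given. The values of genes near 1 FPKM, such as WUSCHEL-like Cs1g25270, ATH1-like Cs4g18650 and the CUC genes, therefore carry no counting error here.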
